A study of Mus musculus with 4 samples.

Results

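Cytosolic ribosomal protein genes were compared between CD4 cells of sanroque (san/san) and wild type (+/+) mice. Their probe sets were chosen by symbol alone: every probe set annotated to 1 gene named Rps or Rpl with a digit, or Rpsa, Rplp0, Rplp1 or Rplp2, with the ribosomal S6 kinase genes left out. This gave 101 of 22690 probe sets on the array, for 49 genes, with 55 probe sets of 23 small subunit genes and 46 of 26 large subunit genes. Of these, 2 symbols, Rps15a-ps6 and Rps4l, are annotated as transcribed pseudogenes.

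Total RNA of CD4 cells was hybridised to 4 Affymetrix MOE430A arrays, 2 of san/san mice and 2 of +/+ mice. Sanroque is an autosomal recessive variant from a pedigree of C57BL/6 males given the mutagen ENU, found by a screen for antinuclear autoantibodies. From knowledge of the line, its mutation lies in Rc3h1, the gene of the mRNA-binding protein Roquin-1. No probe set of the table was annotated to that gene, so the genotype labels have no check of their own. The labels give neither the age nor the sex of the mice used for RNA, nor any pooling, and nothing says that the 2 arrays of a genotype came from separate mice, so the p-values measure a spread that may be technical. The number 1 arrays of both genotypes shared 1 hybridisation day and carry a note of sorted T cells. The number 2 arrays of both shared another day and carry no such note. The letters CBA stand in the record of +/+ array 2 without an explanation, so strain and genotype cannot be told apart.

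Ribosomal proteins fold around the ribosomal RNAs, those named Rps in the small subunit, which reads the mRNA, and those named Rpl in the large subunit, which joins the amino acids. Their mRNAs are among the most abundant of a cell, and most begin with a stretch of pyrimidines through which the mTOR pathway controls their translation. A T cell that becomes activated raises ribosome production before it divides. Many of these genes have processed pseudogene copies and near-identical relatives, so a probe set can read more than 1 transcript, and such values are uncertain as measures of 1 gene.

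Signals were analysed as log2(signal + 6), a scale that understates the change of dim probe sets. Of the 101 probe sets, 88 for 45 genes had a mean signal at or above 21.3 and were tested, 45 of the small and 43 of the large subunit. The 13 others had means of 20.3 or less. They left 4 genes with no tested probe set: both pseudogenes, Rpl39l and Rpl3l. CD4 T cell markers were present throughout: the summed signal of 6 measured genes was 8106 and 8872 on san/san arrays 1 and 2, against 8802 and 9381 on +/+ arrays 1 and 2.

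As a group the ribosomal protein transcripts differed little between the genotypes. The median log2 fold change, san/san over +/+, was -0.063 for the 45 small subunit probe sets and -0.075 for the 43 of the large subunit, beside 0.015 over all 13578 probe sets tested. The fold change lay within 0.25 of 0 for 40 of 45 small subunit probe sets (88.9%) and 29 of 43 large subunit probe sets (67.4%), beside 59.6% of all probe sets tested. This share depends on signal: it was 78.3% of all probe sets tested with a mean at or above 1000 and 58.8% of those below. Of the members it was 89.1% of the 64 at or above 1000 and 50% of the 24 below. By limma, with an adjusted p under 0.05 as the threshold, 3 of the 88 were called, all lower in san/san: 1 of Rps27 and 2 of Rpl41. That is 3.41% of the members, where 0.390% of all probe sets tested were called lower, 0.670% higher and 1.06% in either direction. At an unadjusted p under 0.05, 7 members were lower and 2 higher, beside 4.27% and 5.61% of all probe sets tested. The members' standard errors ran from 0.17 to 0.54, with a median of 0.21, so a difference near that size was not detectable in most of them.

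**Figure D1:**
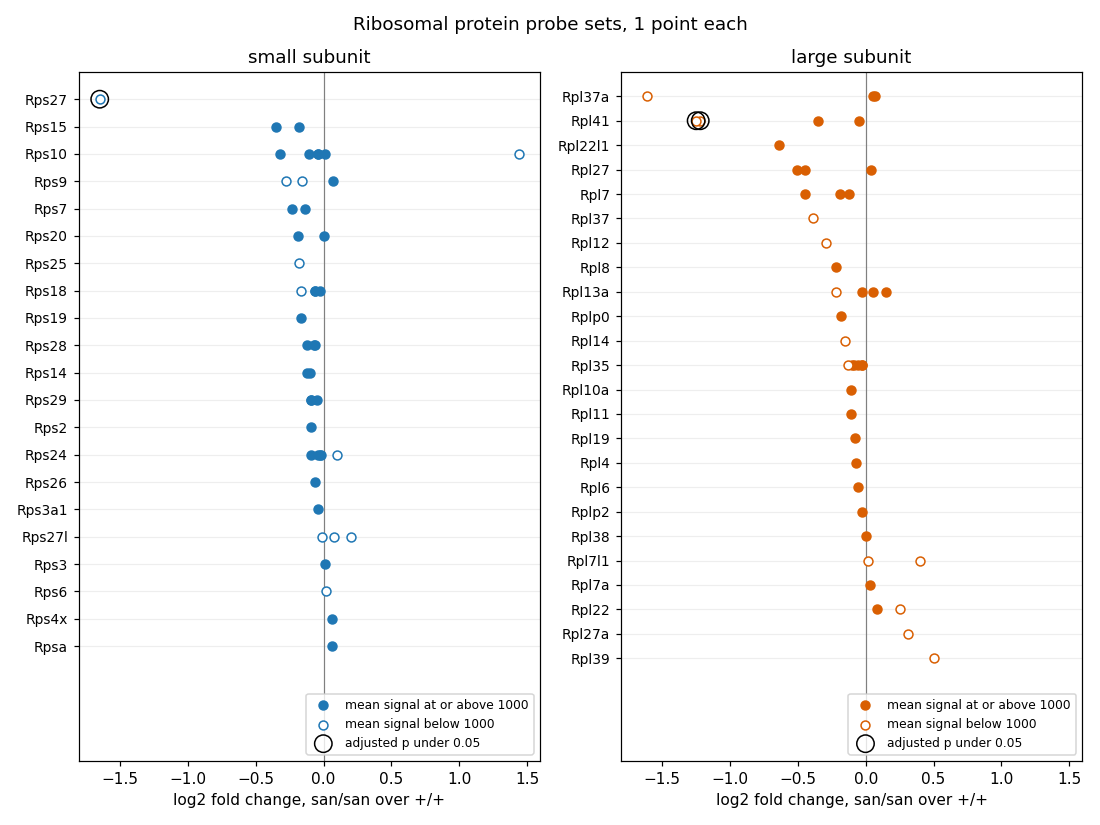
Log2 fold change (x axis, san/san over +/+) of each tested probe set, in rows by gene, for the small subunit (left) and the large subunit (right). Filled points have a mean signal at or above 1000, open points a lower one, and black rings mark the 3 probe sets that passed the test, 1 of Rps27 and 2 of Rpl41.

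Each array's own values show how small the group difference was beside the spread between days. The tested small subunit probe sets had a median log2 signal of 12.15 and 12.36 on san/san arrays 1 and 2, against 12.21 and 12.51 on +/+ arrays 1 and 2. For the large subunit the medians were 11.82 and 11.92 in san/san and 11.85 and 12.11 in +/+. In both genotypes the number 2 array was the higher, and +/+ array 2 was the highest of the 4. All 101 probe sets together made up 8.63% and 9.12% of the summed signal of the san/san arrays, against 8.67% and 9.76% of the +/+ arrays. These shares overlapped between the genotypes.

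The same-numbered pairs gave different medians. Within pair 1, san/san minus +/+, the median was -0.020 for the small and 0.011 for the large subunit, and within pair 2 it was -0.162 and -0.138. Of the 88 probe sets 45 were below 0 in pair 1 and 71 in pair 2, and 49 had the same sign in both pairs (55.7%, beside 61.9% of all probe sets tested). Without +/+ array 2 the medians turned to 0.034 for the small and 0.028 for the large subunit, and without +/+ array 1 they were -0.205 and -0.199. Of the 4 arrays, +/+ array 2 was the only one whose omission put both medians above 0.

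**Figure D2:**
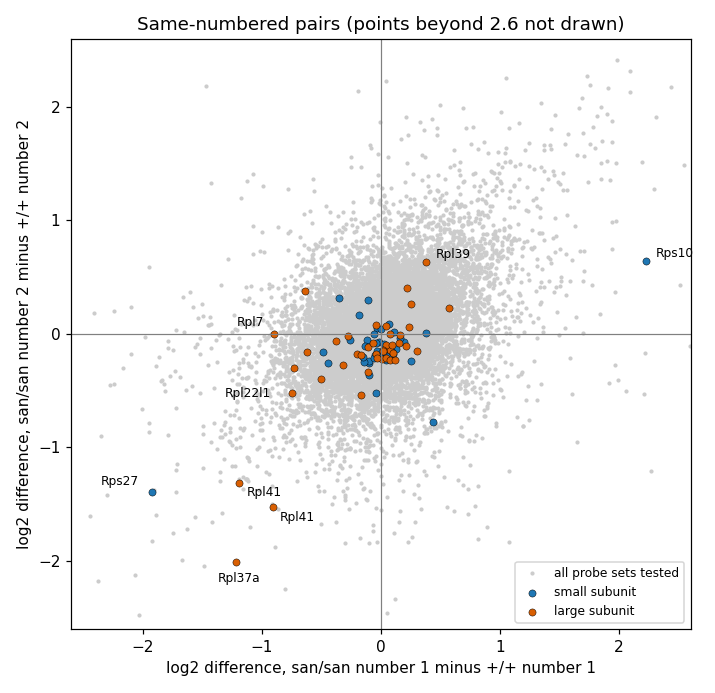
Difference in log2(signal + 6) between san/san and +/+ within the number 1 pair (x axis) and the number 2 pair (y axis), for all probe sets tested (grey) and the members by subunit (coloured); points beyond 2.6 are not drawn. Most members cluster near 0 and a little below it on the y axis, while Rps27, both called Rpl41 probe sets and 1 of Rpl37a lie low in both pairs.

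The fold changes spread less among bright probe sets than among dim ones, with a division at a mean of 1000 that was made after the values were seen. The 64 members at or above 1000 had fold changes from -0.64 to 0.15 with a median of -0.064, and none passed the test. Of all 535 probe sets tested at this signal, members included, the median was -0.058 and 6 passed, 2 higher and 4 lower. On 54 of the 64 members +/+ array 2 gave the highest signal (84.4%), as it did for 51.8% of the 396 probe sets at this signal that name no ribosomal protein gene. The median difference of array 2 minus array 1 was 0.131 in san/san and 0.294 in +/+ for these members, and 0.119 and 0.190 for those 396. How far the array's response at high signal flattens such differences was not tested.

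**Figure D3:**
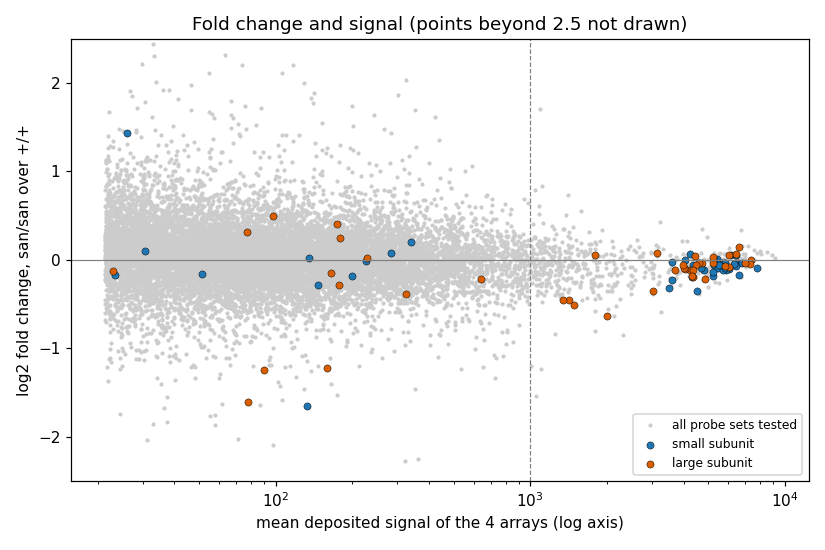
Log2 fold change (y axis, san/san over +/+) against the mean signal of the 4 arrays (x axis, log scale) for all probe sets tested (grey) and the members (coloured by subunit), with a dashed line at 1000; points beyond 2.5 are not drawn. Right of the line the members lie between -0.64 and 0.15, and left of it between -1.65 and 1.44.

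The 24 members below 1000 ranged from -1.65 to 1.44, with a median of -0.141, beside 0.020 for all 13043 probe sets tested below 1000. All 3 called probe sets were among them. Another 98 tested probe sets name a ribosomal protein gene together with other genes, and are no members. They had a median of -0.073, 0 were called higher and 1 was called lower, beside 0.670% and 0.390% of all probe sets tested. The 1 called had a mean signal below 1000. At an unadjusted p under 0.05 by limma, 0 were higher and 5 were lower, beside 5.61% and 4.27% of all probe sets tested.

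In the small subunit Rps27 stood alone. It encodes a zinc-finger protein of the small subunit, and a single probe set, 1460699_at, read it by itself. This probe set is dim, with a mean of 132.55, where the 34 small subunit probe sets at or above 1000 had means of 3494.3 to 7741.8. Rps27 had no bright probe set of its own to compare, and how much of its mRNA 1460699_at reads was not tested. The signal of 1460699_at was 68.2 and 49.1 on san/san arrays 1 and 2, against 274.3 and 138.6 on +/+ arrays 1 and 2. Both san/san values lay below both +/+ values, and +/+ array 1 was the highest of the 4. The log2 fold change of Rps27 was -1.65 (standard error 0.30, limma adjusted p = 0.0254), with -1.92 in pair 1 and -1.39 in pair 2. It no longer passed after quantile normalization (adjusted p = 0.0503), with no filter (0.147), with no variance trend (0.215) or without san/san array 2 (0.0503). With the replicate number as a block it held (1.48e-07). Here and below, the block leaves little of a probe set's own spread to measure. The p-values of that fit thus rest mainly on the spread of other probe sets. Those of the main fit, with 2 arrays per genotype, also rest in large part on that spread. For 1460699_at itself, array 2 minus array 1 was -0.43 in san/san and -0.95 in +/+ on the log2 scale.

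Its paralog Rps27l, a p53-responsive gene whose protein can take the place of Rps27 in the ribosome, was read by 3 probe sets. The first, 1450925_a_at, had 356.5 and 365.0 in san/san and 272.1 and 361.6 in +/+. The second, 1435429_x_at, had 317.2 and 267.0 in san/san and 302.8 and 250.8 in +/+. The third, 1423254_x_at, had 200.7 and 251.3 in san/san and 227.9 and 223.2 in +/+. San/san array 1 lay below +/+ array 2 in the first, and the genotypes overlapped in all 3. Their fold changes were 0.20, 0.08 and -0.01, and the first had a 95% interval from -0.22 to 0.62 (limma adjusted p = 0.837 to 0.998).

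In the large subunit Rpl41, which encodes a very short, strongly basic peptide, had 4 tested probe sets that did not move together. The probe set 1433530_at had 56.4 and 45.4 in san/san, against 136.2 and 121.8 in +/+. The probe set 1454639_x_at had 93.0 and 90.8 in san/san, against 180.2 and 274.5 in +/+. In both, every san/san value was below every +/+ value. Their log2 fold changes were -1.25 (standard error 0.22, adjusted p = 0.0228) and -1.22 (standard error 0.22, adjusted p = 0.0275) by limma. The bright probe set 1455578_x_at had 6784.1 and 7453.7 in san/san and 6238.5 and 8713.6 in +/+, a log2 fold change of -0.05 with a 95% interval from -0.55 to 0.45. The fourth, 1422623_x_at, had 2532.8 and 2774.6 in san/san and 2846.8 and 4038.5 in +/+, with -0.35 (adjusted p = 0.661). Only the dim pair passed, and as the mean of its 4 probe sets Rpl41 had -0.72 and did not pass (adjusted p = 0.065). Both calls ended with no filter (adjusted p = 0.115 and 0.120), with no variance trend (0.129 and 0.209) and without san/san array 2 (0.0843 and 0.0567). The second also ended without +/+ array 2 (0.106) and under quantile normalization (0.0510).

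Rpl37a, another zinc-finger protein of the large subunit, was divided in the same manner. Its dim probe set 1416218_x_at had 25.1 and 40.2 in san/san, against 66.4 and 180.0 in +/+, and did not overlap between genotypes. The log2 fold change was -1.61 with a standard error of 0.40, short of the threshold (adjusted p = 0.107). It passed with the replicate number as a block (7.49e-06), with each array centred on its median (0.0105), without san/san array 2 (0.0422) and without +/+ array 1 (4.06e-06). The 2 bright probe sets had 0.07 and 0.05, with 6765.1 and 6371.7 in san/san and 5506.7 and 7069.5 in +/+ for 1460543_x_at. They overlapped between the genotypes.

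**Figure D4:**
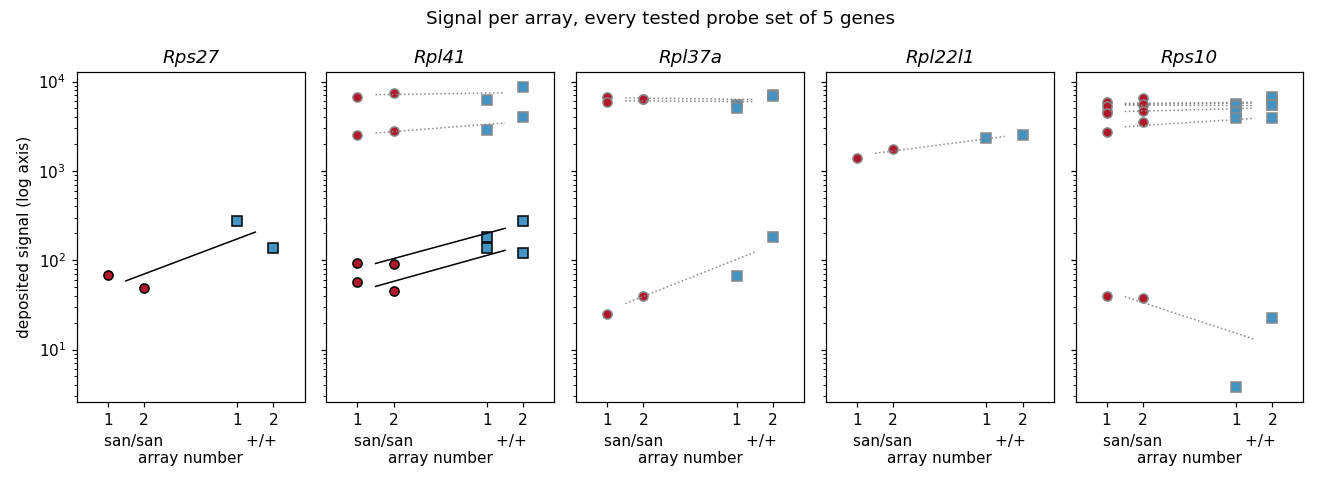
Deposited signal (y axis, log scale) on each array for every tested probe set of Rps27, Rpl41, Rpl37a, Rpl22l1 and Rps10, with san/san as circles and +/+ as squares. Lines join the genotype means, solid with black marker edges where the probe set passed the test, and only dim probe sets of Rps27 and Rpl41 are solid.

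The start sites are shown to set the genes with the lowest probe sets beside 3 genes with fold changes near 0, and to show the pyrimidine stretch that the family is known for. Of these 3, Rps6 was measured by a dim probe set alone (mean 134.57). Each window runs from 50 bases before the start that the RefSeq promoter table uses to 20 after it, on the gene's strand in GRCm38.p6, and capitals mark runs of 8 or more pyrimidines. The first 4 genes had the lowest fold changes of all tested genes of the family by their lowest probe set. Of these only Rps27 and Rpl41 have a probe set that passed. Rpl41 and Rpl37a are among them through dim probe sets. The bright probe sets of Rpl41 had -0.05 and -0.35, and those of Rpl37a 0.07 and 0.05. For Rpl38 the gene as annotated begins upstream of the start used here, at position 114667818 of chromosome 11.
Rps27: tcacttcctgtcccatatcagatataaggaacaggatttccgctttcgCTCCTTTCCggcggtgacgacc
Rpl37a: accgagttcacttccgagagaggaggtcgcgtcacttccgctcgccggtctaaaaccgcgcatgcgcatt
Rpl41: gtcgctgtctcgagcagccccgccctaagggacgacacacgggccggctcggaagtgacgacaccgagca
Rpl22l1: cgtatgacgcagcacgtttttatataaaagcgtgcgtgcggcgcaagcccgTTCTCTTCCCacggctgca
Rplp2: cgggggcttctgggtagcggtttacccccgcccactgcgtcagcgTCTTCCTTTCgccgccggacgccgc
Rpl38: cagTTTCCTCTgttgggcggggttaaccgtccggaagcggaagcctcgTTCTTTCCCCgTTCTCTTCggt
Rps6: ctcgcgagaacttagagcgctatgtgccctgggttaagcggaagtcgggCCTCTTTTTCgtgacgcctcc

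The windows lie at chr3:90213629-90213698 on the minus strand for Rps27, chr1:72711210-72711279 on the plus strand for Rpl37a, chr10:128549149-128549218 on the minus strand for Rpl41 and chr3:28805458-28805527 on the plus strand for Rpl22l1. Those of Rplp2 (chr7:141447601-141447670) and Rpl38 (chr11:114668530-114668599) are on the plus strand and that of Rps6 (chr4:86857348-86857417) on the minus strand. A run of at least 8 pyrimidines within 25 bases of the start was present in 23 of 50 windows of the 42 member genes with an entry (46%), beside 19.7% of all 32851 windows of the RefSeq table. The letters CCGGAAG, a sequence that ETS family factors bind, occurred on either strand between 250 bases before and 50 after the start in 42% of the member windows and 8.86% of all windows. The letters AAGATGGC, within the site of the factor YY1, were in 8% and 2.75%, and the TATA box letters TATAAA in 12% and 13.6%. Among the first 4 genes, Rps27 and Rpl22l1 have the run at the start, while Rpl41 and Rpl37a do not in these windows, and Rplp2, Rpl38 and Rps6 have it. Other genes with fold changes near 0 lack the run, such as Rps3 (0.01), Rpsa (0.06) and Rps4x (0.06). A relation between the run and the fold change was not tested. These are matches of letters to annotated starts and are not measured sites.

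Further large subunit genes had lower values that did not pass. Rpl22l1, the paralog of Rpl22, had 1376.8 and 1766.9 in san/san, against 2315.4 and 2541.4 in +/+, by its only probe set. The genotypes did not overlap, and the log2 fold change was -0.64 with a standard error of 0.19 (limma adjusted p = 0.223, and 0.00316 with the replicate number as a block). Rpl22 itself, which the development of mouse T cells requires, had 3274.5 and 3194.0 in san/san and 2936.1 and 3207.3 in +/+, with 0.08. Its other probe set had 0.25. Neither passed, and the difference between Rpl22l1 and Rpl22 was not tested.

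Rpl27, whose protein lies near the exit of the peptide tunnel, was read by 3 probe sets. The probe set 1453096_x_at had 1071.9 and 1392.0 in san/san, against 1782.0 and 1713.7 in +/+, and 1448217_a_at had 1147.5 and 1257.2 in san/san, against 1630.8 and 1660.6 in +/+. Both were lower on every san/san array, at -0.51 and -0.45, and did not pass (adjusted p = 0.372 and 0.394, with the block 0.0243 and 0.0439). The third, 1416099_at, had 4147.1 and 4814.0 in san/san and 3921.1 and 4817.7 in +/+, with 0.04, and overlapped. Rpl39, a small tunnel protein, went the other way: it had 101.1 and 130.8 in san/san, against 76.4 and 82.4 in +/+, with 0.50 (adjusted p = 0.467). Rpl7l1, a relative of Rpl7 that takes part in ribosome assembly, had 190.3 and 205.1 in san/san, against 126.5 and 174.1 in +/+, with 0.40 by 1 probe set (adjusted p = 0.584). Its other probe set had 0.02.

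Rps10, which sits at the head of the small subunit, had the widest span between its probe sets. The dim probe set 1436384_at had 40.1 and 38.1 in san/san, against 3.8 and 22.3 in +/+, a fitted log2 fold change of 1.44 (standard error 0.54). Its +/+ mean of 13.05 is below the filter value of 21.3, so it was tested only through its san/san mean of 39.1 and had to differ in this direction. It missed the threshold (adjusted p = 0.390) and passed with the replicate number as a block (0.0220), and the 2 +/+ arrays lay further apart than the genotypes on the second day. Its 5 bright probe sets, with means of 3494.3 to 5775.8, had fold changes of -0.32 to 0.01. Of these, 1439374_x_at was lower on both san/san arrays, with 2749.3 and 3486.6 against 3858.0 and 3883.2 in +/+ (adjusted p = 0.673).

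With the replicate number as a block the counts grew, as they did over the whole array. Of the large subunit 6 probe sets were then called lower and 0 higher: 2 of Rpl41, 1 of Rpl37a, 2 of Rpl27 and 1 of Rpl22l1. Of the small subunit 1 was lower, Rps27, and 1 higher, the dim probe set of Rps10 that was tested only through its san/san signal. The 7 lower calls are 7.95% of the members, beside 2.69% of all probe sets tested called lower and 3.59% called higher in that fit.

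Genotypes did not overlap in 15 members that were lower in san/san (17.0%) and 5 that were higher (5.68%), beside 17.7% and 21.0% of all probe sets tested. The lower share is near that of the array as a whole. By subunit, 4 of 45 small and 11 of 43 large subunit probe sets were lower without overlap, and 1 and 4 were higher. The difference between the subunits was not tested.

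The remaining small subunit proteins with a known role outside or beside translation did not pass the test. Rps6, the protein that the mTOR pathway's kinases phosphorylate, had 145.7 and 125.1 in san/san and 145.7 and 121.8 in +/+, with 0.02 and a 95% interval from -0.42 to 0.46. The only tested probe set of Rps6 is dim, with a mean of 134.57, and how much of its mRNA this reads was not tested. Rps3, also a DNA repair and NF-kB cofactor, had 5194.7 and 5276.5 in san/san and 4380.0 and 6213.9 in +/+, with 0.01 (interval -0.48 to 0.49). Rps19, mutated in human Diamond-Blackfan anaemia, had 5446.6 and 6962.0 in san/san and 5835.7 and 8218.0 in +/+, with -0.17 (interval -0.69 to 0.35). In each the genotypes overlapped, and the intervals leave room for differences in either direction. Rpsa, also known as a laminin receptor precursor, had 6196.8 and 6906.1 in san/san and 5533.6 and 7101.9 in +/+, with 0.06. Rps7 (1435593_x_at, -0.23, interval -0.67 to 0.21) and Rps25 (-0.18, interval -0.58 to 0.23) were lower on both san/san arrays and did not pass.

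Among large subunit proteins of similar note the values were likewise close. Rplp0, the base of the ribosomal stalk, had 3604.8 and 4513.4 in san/san and 4053.0 and 5146.4 in +/+, with -0.18 (interval -0.65 to 0.29). Rplp2, which forms the stalk's tip with Rplp1, had 6839.0 and 6891.2 in san/san and 6381.1 and 7741.2 in +/+, with -0.03 (interval -0.49 to 0.42). Within both genes the genotypes overlapped, and Rplp1 had no probe set of its own. Rpl11, which binds Mdm2 when ribosome assembly fails, had 3385.4 and 3734.5 in san/san and 3487.6 and 4222.6 in +/+, with -0.11 (interval -0.54 to 0.32). Rpl38, needed in mice for translation of Hox mRNAs, had 7033.9 and 7669.3 in san/san and 6598.7 and 8201.6 in +/+, with a log2 fold change that rounded to 0 (interval -0.47 to 0.47). Rpl13a, known in human cells for silencing inflammatory mRNAs, had 4 probe sets between -0.22 and 0.15, none of which passed. The other 48 tested probe sets lay between -0.45 and 0.31, with adjusted p of 0.624 or more.

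With 1 value per gene, the mean of its tested probe sets, 15 of 21 small subunit genes and 19 of 24 large subunit genes were below 0, with medians of -0.082 and -0.093. Counted by probe set, 73.9% of the 88 members were below 0, beside 47.9% of all probe sets tested. At a mean signal at or above 1000 the share was 79.7% of the 64 members and 65.2% of all probe sets tested, members included. Of the 396 at this signal that name no ribosomal protein gene it was 60.6%. Of these 45 genes Rps27 alone passed (limma adjusted p = 0.0102), by its only probe set, a dim one. The genes nearest to it were Rpl41 and Rpl22l1 (-0.64, adjusted p = 0.168).

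Genes that work with the ribosome were read from lists, every tested probe set counted. Of 41 probe sets of 20 elongation, initiation and other genes whose translation is controlled like that of ribosomal proteins, 0 passed in either direction and the median was -0.107. With the block 4 were lower: 2 of the splicing factor gene Hnrnpa1 (-0.69 and -0.73), 1 of Cirbp and a dim one of the poly(A)-binding protein gene Pabpc1. Over all probe sets tested 2.69% were called lower with the block. The bright probe set of Pabpc1 had 4010.8 and 4474.7 in san/san, against 3501.9 and 3796.9 in +/+, with 0.22. The elongation factor gene Eef1a1 had 0.11 and Eef2 0.08. Fau, which carries another small subunit protein, had 4579.7 and 5366.3 in san/san and 5067.1 and 6979.9 in +/+, with -0.26 (limma adjusted p = 0.797).

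Of 70 probe sets of 43 ribosome assembly genes 0 passed, with a median of -0.091, and of 110 probe sets of 74 mitochondrial ribosomal protein genes 0 passed, with a median of -0.070. With the block 1 of each was lower, Rrp9 (-0.82, adjusted p = 0.0422) and Mrpl12 (-0.66, adjusted p = 0.0123), which had adjusted p of 0.567 and 0.300 without it. Over all probe sets tested 2.69% were called lower with the block, a share that neither list reached, and 3.59% were called higher. Among the genes that control ribosomal protein translation or transcription 0 of 23 probe sets passed, with a median of 0.031. With the block the translation inhibitor gene Eif4ebp2 was higher by 1 of 4 tested probe sets (0.65, adjusted p = 0.0156), and Myc, a driver of ribosome production, was lower (-0.51, adjusted p = 0.0441). Without the block these had limma adjusted p of 0.326 and 0.358. A probe set of Eif4ebp1, also a translation inhibitor gene, passed with the block too (adjusted p = 0.0367, and 0.353 without it), but both of its +/+ signals were below the filter value, and its other 2 tested probe sets had -0.06 and 0.18.

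Markers of myeloid cells were higher in san/san, and the part of other cells in the values above was not tested. The summed signal of the 8 myeloid genes was 2679 and 2754 on the san/san arrays, against 1230 and 1341 on the +/+ arrays. Of 9 tested probe sets 4 were called higher (7 with the replicate number as a block). Over all probe sets tested 0.670% were called higher, and 3.59% with the block. The block count takes in Camp, whose +/+ signals of 4.5 and 17.2 were below the filter value of 21.3. Camp was thus tested only through its san/san signals of 55.2 and 59.1 and had to differ in this direction. Of the red cell markers 5 of 8 genes had a probe set, and only Alas2 and Slc4a1 had a tested one. The probe sets of Hba-a1 and Hba-a2 were too dim to be tested and overlapped between the genotypes. For the red cell markers the sums were 1393 and 1545 in san/san, against 946.4 and 956.4 in +/+, with 0 of 3 called (2 with the block, both higher). For B cell markers, 3 of 4 genes with a probe set, they were 848.6 and 892.2 in san/san, against 991.3 and 974.3 in +/+, with 0 of 4 called. For the 2 genes of CD8 T cells they were 149.2 and 133.8 in san/san, against 126.2 and 118.5 in +/+. In RNA of a whole cell sample, fewer cells of a type and less RNA per cell cannot be told apart.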

How the data were processed

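The authors deposited linear signal intensities, 1 for each probe set on each array. Per the file headers the chip was MOE430A; the summary algorithm is not given in the sources used here. Trimmed means (2% to 98%) of 99.59 to 99.97 show that the deposited arrays had been scaled. Precision is limited by there being 4 arrays. Hybridisation days were read per the file headers.

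Genes came from the platform annotation, updated by gene identifier (RefSeq, GRCm38.p6): 20393 probe sets had 1 symbol, 691 several and 1555 none, with 64 controls. No member's symbol changed. Probe sets with a mean at or above the 40th percentile (21.3) were tested by limma 3.58.1 in R 4.3.3 (lmFit, eBayes with a variance trend) on log2(signal + 6), two-sided; p-values were adjusted over all 13578 by the Benjamini-Hochberg method. The fits were tested on simulated data. Same-numbered arrays shared a day, so numbers pair them, which gives 2 pairs. Over the 13578 probe sets tested, the deviations of same-numbered arrays from their genotype means correlated with 0.392.

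Members, lists and the rule for named genes were chosen with earlier results of these data known. The rule took called members, the 5 highest and 5 lowest fold changes per subunit among probe sets that did not overlap between genotypes and had the same sign in both pairs, the 4 genes with the widest spread between probe sets, paralogs, stalk genes, Rpsa and 8 genes of known roles. Alternatives were quantile normalization, median centring, pseudocounts of 1 and 24, a stricter filter (60th percentile) or none, eBayes without a trend, the replicate block, each array left out, 1 value per gene, symbols as annotated, and no probe sets ending in _s_at or _x_at. A division at a mean of 1000 was added after the data were seen. Promoter windows were taken from RefSeq, GRCm38.p6. Python 3.11.15 and matplotlib 3.10.9 drew the figures.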

Additional observations from a re-analysis of the deposited data

How the results depend on the processing

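The median of the small subunit was -0.205 to 0.034 and that of the large subunit -0.199 to 0.028 when 1 array was left out; under the other alternatives both medians stayed below 0, at -0.153 with each array centred on its median for the small and -0.166 for the large subunit, a setting that moved the median of all probe sets from 0.015 to -0.076. The counts of called probe sets depended more on the setting. Over the whole array 144 passed, against 853 with the replicate block, 56 without the filter and 47 without the variance trend, and 105 to 356 with 1 array left out. Of the small subunit 1 passed, against 2 with the replicate block and 0 under quantile normalization, without the filter, without the variance trend or among members at or above 1000, and 0 to 1 with 1 array left out. Of the large subunit 2 passed, against 6 with the replicate block, 1 under quantile normalization, 1 without probe sets ending in _s_at or _x_at, 0 without the filter, without the variance trend, with 1 value per gene or among members at or above 1000, and 1 to 3 with 1 array left out. The Rps27 fold change was -1.68 under quantile normalization, -1.65 without the filter or the variance trend, and -2.13 to -1.18 with 1 array left out. Those of the 2 called Rpl41 probe sets were -1.25 and -1.22 without the filter and without the variance trend, -1.23 for the second under quantile normalization, and -1.39 to -1.11 and -1.52 to -0.93 with 1 array left out. No call changed direction among 479 values of named probe sets under these settings; 12 lost the call and 8 gained it. The cause was not tested. Leaving out the filter tests 22626 probe sets in place of 13578.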
